A study of Mus musculus with 10 samples.

Results

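Imprinted genes are transcribed mainly from 1 parental copy. The 55 mouse imprinted genes described here were taken from a list of gene symbols, and each was found in the table of 51467 genes. The list was chosen with earlier results of these data known. They fall into 23 imprinted clusters. At least 1 read was counted for 52 of them, and 44 passed the filter and were tested. The filter asked for 3 CPM, which are counts scaled to a common library size, in at least 3 libraries. The cells were mouse embryonic stem cells (ESCs) grown with LIF, the 2i inhibitors and serum. The RNA was read by QuantSeq, which sequences the 3′ end of polyadenylated transcripts. Wild-type (WT, 3 libraries) cells of the V6.5 line were set against an existing DGCR8 KO line (3 libraries). That line lacks the Microprocessor subunit needed to make canonical miRNAs. The sources used here do not name its parental line, and the effect of the knockout cannot be told apart from other differences of that line. WT cells were also set against DDX6 KO cells made from V6.5 (4 libraries). These lack a DEAD-box RNA helicase of P-bodies that acts in translational repression and decapping. The DDX6 KO libraries came from 2 clones with 2 libraries each, one clone carrying a 1-nt insertion and the other a large deletion in the same exon, each leading to a premature stop, so the knockout effect rests on those clonal lines. Counts do not separate the parental alleles, so a change in level cannot be assigned to the maternal or the paternal copy. Nothing in the sources used here says that the libraries of a line came from separate cultures, and p-values measure only the spread between these libraries.

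At many imprinted genes, though not at all, which copy is silent is set in the germ line by DNA methylation of an imprinting control region, often within a CpG-rich promoter. After fertilization the mark is held by ZFP57, a zinc finger protein that binds a methylated hexanucleotide, with TRIM28, SETDB1 and the maintenance methyltransferase DNMT1. Paternally expressed genes such as Peg10, Mest and Igf2 largely favour fetal and placental growth, and several maternally expressed genes such as H19, Igf2r, Cdkn1c and Grb10 restrain it. Imprints are known to be unstable in cultured ESCs, particularly in 2i medium.

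The library totals ran from 2131156 to 4745083 counts, at which 3 counts, used as the floor, correspond to 0.669 to 1.44 CPM. Both targeted genes fell in their own line. Dgcr8 decreased by 2.34 on the log2 scale in DGCR8 KO cells (SE 0.25, adjusted p = 9.4e-07, limma-voom) and Ddx6 decreased by 3.05 in DDX6 KO cells (SE 0.35, adjusted p = 3.9e-06), with 142 ± 10.5 CPM left in clone 1 and 32.4 ± 9.41 CPM in clone 2 (SD, n = 2 each) against 538 ± 42.3 CPM in WT cells (SD, n = 3). All 7 stem cell markers examined passed the filter, their summed level running from 3138 to 3985 CPM over all libraries. Markers of fibroblasts, which serve as feeders and are rich in H19, Igf2, Dlk1 and Meg3, summed to 3.41 to 4.32 CPM in WT, 2.44 to 3.39 CPM in DGCR8 KO and 5.28 to 9.52 CPM in DDX6 KO libraries, and 1 of 7 (Col1a1) passed the filter. Of these markers, Dcn and Postn were at 0 reads in every WT and DDX6 KO library, while the summed level was higher in DDX6 KO than in WT libraries. Of 5 trophoblast markers only Gata3 passed, at summed levels of 9.04 to 26.4 CPM with Elf5 at 0 in every library, and none of 4 primitive endoderm markers did, at 1.74 to 5.28 CPM. In bulk RNA, fewer cells of a type and less RNA per cell cannot be told apart.

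Sequence is shown for 3 sets of members that the results turn on. The first is the promoter of Mest, one of the most increased members of DDX6 KO cells. The hexanucleotide bound by ZFP57, TGCCGC, was searched on both strands of 300-base RefSeq promoter windows (GRCm38.p6, 250 bases before to 50 after each start), of which the 69 windows found cover 46 members. It was present in 23.2% of members' windows and in 11.6% of the windows of all genes. Overlapping windows, such as those of Mest, were each counted. The window of Mest shown here held 2 matches, both on the opposite strand and shown in capitals as GCGGCA.
Mest promoter, chr6:30737800-30738099, plus strand: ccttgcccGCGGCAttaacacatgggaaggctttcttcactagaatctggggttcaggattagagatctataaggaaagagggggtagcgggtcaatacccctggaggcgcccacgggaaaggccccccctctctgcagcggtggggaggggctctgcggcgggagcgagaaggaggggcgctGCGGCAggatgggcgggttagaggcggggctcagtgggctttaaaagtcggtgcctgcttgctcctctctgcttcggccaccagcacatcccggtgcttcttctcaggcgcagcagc
The second is the start shared by Peg3 and Usp29. These genes run in opposite directions from starts with 161 bases between them, and 263 bases are common to both promoter windows. The palindromic cyclic AMP response element TGACGTCA, in capitals, occurs once in the window of Usp29. It lies in the shared bases, so the window of Peg3 holds the same site. The element was found in 1.79% of all windows and in 5.80% of members' windows (4 of 69), where this site counts in both windows. Sgce and Peg10 are placed likewise, head to head with 98 bases between their starts.
Usp29 promoter, chr7:6730333-6730632, plus strand: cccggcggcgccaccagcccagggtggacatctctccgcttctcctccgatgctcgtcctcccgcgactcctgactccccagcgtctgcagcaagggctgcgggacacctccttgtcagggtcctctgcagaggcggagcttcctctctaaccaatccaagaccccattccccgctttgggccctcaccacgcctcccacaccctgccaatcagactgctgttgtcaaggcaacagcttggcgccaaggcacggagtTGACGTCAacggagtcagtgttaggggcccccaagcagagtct
The third is the seed of the ESC-enriched miRNAs that DGCR8 KO cells lack. Members of the miR-290 and miR-302 families share a seed (bases 2 to 8, in capitals), and 3 of them are shown from RefSeq. The authors describe naive ESCs of a reporter line as positive for miR-290 and negative for miR-302. Matches to the seed were searched in the longest 3′ UTR of each gene. They are shown for the 3 members with a match that fell more than 2-fold in DGCR8 KO cells at an adjusted p-value below 0.05 (limma-voom).
miR-291a-3p: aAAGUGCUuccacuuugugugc
miR-294-3p: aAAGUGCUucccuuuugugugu
miR-302d-3p: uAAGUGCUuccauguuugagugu
Peg10, chr6:4759051-4759079, plus strand: tcttttattttAGCACTTccaacaaaaat
Ppp1r9a, chr6:5161459-5161487, plus strand: tttctggcccgAGCACTTctgtaagttct
Usp29, chr7:6965193-6965221, plus strand: gagaatttaaaAGCACTTtaaagtgccaa
Of the 39 tested members with an annotated 3′ UTR, 10 (25.6%) held the 7-base match AGCACTT, against 18% of 10959 tested genes. Over all tested genes the median log2 change in DGCR8 KO against WT was 0.23 with a match and -0.03 without one. Among the members it was -0.13 for the 10 with a match and -0.21 for the 29 without. Of the pair of members that increased more than 2-fold in DGCR8 KO cells, Impact held 1 match and Sfmbt2 none. Among members with a match and a smaller difference, H13 was 0.90 higher and Commd1 0.53 lower on the log2 scale. A match of letters is a description and not a measured site.

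In DGCR8 KO against WT, 9 of the 44 tested imprinted genes changed (20.5%), 2 of them higher and 7 lower, while 14.7% of all 11683 genes tested changed. A change means an adjusted p-value under 0.05 over all genes tested and a more than 2-fold difference. In DDX6 KO against WT, 6 changed (13.6%), 4 higher and 2 lower, close to the 11.2% of all genes tested. Sgce, among those higher, passed the filter only through its DDX6 KO libraries. Set directly against each other, the knockouts differed in 11 members (25.0%), all lower in DGCR8 KO, where 17.1% of all genes tested differed. Of these members, Peg10, Sgce, Mest and Ppp1r9a lie on chromosome 6 and Gab1 on chromosome 8. As given below, chromosome 6 as a whole was higher in DDX6 KO and chromosome 8 lower in DGCR8 KO. Each shift lowers the values of DGCR8 KO against DDX6 KO. The median log2 change over the 44 tested members was -0.17 in DGCR8 KO and 0.27 in DDX6 KO, against 0.00 and 0.02 over all genes tested. In DDX6 KO it was 0.92 over the 7 members on chromosome 6 and 0.07 over the 37 elsewhere, and 0.10 over all 44 after the median shift of each chromosome was subtracted from its genes. Of the 37 members off chromosome 6, 3 changed in DDX6 KO (8.11%). Both knockouts were compared with the same WT libraries, so those columns of values are not independent of each other.

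**Figure D1:**
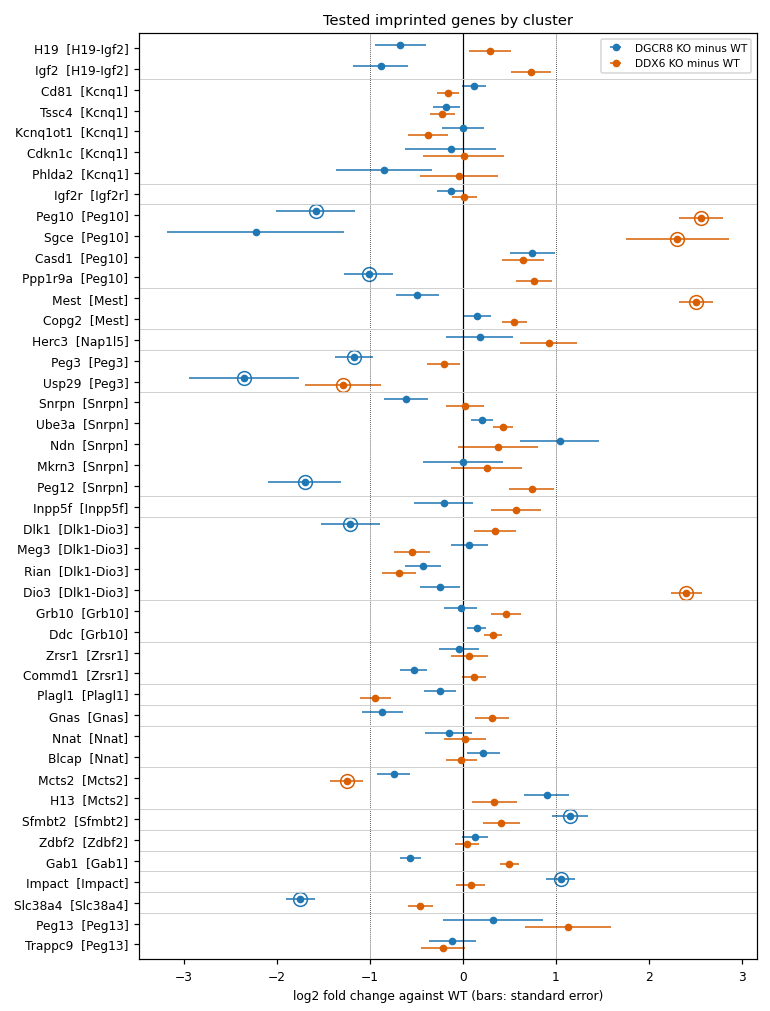
Log2 fold change against WT of the 44 tested imprinted genes, ordered by cluster (in brackets). Points are the fitted change in DGCR8 KO (blue) and DDX6 KO (orange), bars the standard error, and rings the members that changed, 9 in DGCR8 KO and 6 in DDX6 KO. The 4 rings on the right in DDX6 KO are Peg10, Sgce, Mest and Dio3.

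The members that changed were mostly genes usually expressed from the paternal copy, as were 24 of the 44 tested. A label for the usually expressed allele was given to each member from general knowledge, with these results already known, so its counts are a description. Of 24 tested paternally expressed members, 8 changed in DGCR8 KO (33.3%), 6 in DDX6 KO (25%) and 9 between the knockouts (37.5%). Over all genes tested the shares were 14.7%, 11.2% and 17.1%. Of those 6, Peg10, Sgce and Mest lie on chromosome 6, which was higher as a whole in DDX6 KO cells. Of 15 tested maternally expressed members the numbers were 1, 0 and 1, and of 5 with mixed or isoform-dependent imprinting they were 0, 0 and 1. The 9 changed members of DGCR8 KO cells lay in 7 of the 22 clusters with a tested member, and the 6 of DDX6 KO cells in 5. In DGCR8 KO the Peg10, Snrpn and Dlk1-Dio3 clusters also held tested members that did not change, while both tested members of the Peg3 cluster changed. Sfmbt2, Impact and Slc38a4 are the only listed members of their clusters, which cannot show either pattern. In DDX6 KO each cluster with a changed member also held a tested member that did not change.

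The Peg10, Mest and Nap1l5 clusters lie on chromosome 6, and the whole of that chromosome was higher in DDX6 KO cells. The median over its 554 other tested genes was 0.60 ± 0.066 on the log2 scale above WT (SD, n = 4 libraries), or 1.51-fold. It stood at 0.68 and 0.62 in the libraries of clone 1 and at 0.56 and 0.53 in those of clone 2. In DGCR8 KO cells it was 0.08 ± 0.054 (SD, n = 3). Because 26.2% of the other chromosome 6 genes passed the test in DDX6 KO cells as scaled, each member there was also tested after subtracting, in every library, the median shift of its chromosome. On that centred scale 14.6% of the other chromosome 6 genes and 10.5% of all genes tested changed.

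Each of the 7 tested chromosome 6 members was higher in DDX6 KO cells with an adjusted p-value below 0.05, as were 323 of the 554 other tested genes there, but 4 of the members lay near the chromosome's median and 3 far above it. Casd1, Ppp1r9a, Copg2 and Herc3 were 0.55 to 0.92 higher on the log2 scale. Among the 561 tested genes of the chromosome, ordered from the highest change, Herc3 ranked 157, Ppp1r9a 214, Casd1 256 and Copg2 303. Peg10, Mest and Sgce were 2.3 to 2.56 higher and ranked 19, 20 and 26. Centred on the chromosome, the first 4 lay between -0.05 and 0.32 and none passed the test. The other 3 remained 1.71 to 1.96 higher and all passed.

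**Figure D2:**
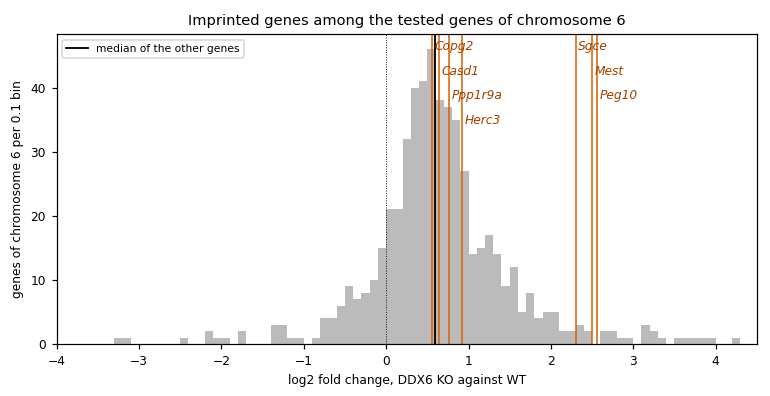
Log2 fold change in DDX6 KO against WT of the 554 tested chromosome 6 genes that are no members (grey, bins of 0.1), with their median (black line, 0.59) and the 7 tested members (orange lines). Copg2, Casd1, Ppp1r9a and Herc3 fall within the bulk of the chromosome, and Sgce, Mest and Peg10 in its upper tail.

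Peg10 (chr6:4747306-4760517, mm10), a retrotransposon-derived gene needed for the placenta, was counted at 13.4, 9.54 and 10.7 CPM in the WT libraries and at 4.29, 2.71 and 3.67 CPM in the DGCR8 KO libraries. In DDX6 KO cells its level was 77.7 and 48.7 CPM (clone 1) and 77.4 and 61.6 CPM (clone 2). The groups did not overlap, with DGCR8 KO lowest and DDX6 KO highest. Its level increased 5.90-fold in DDX6 KO (log2 2.56, SE 0.24, adjusted p = 4.1e-07) and 3.89-fold relative to chromosome 6 (log2 1.96, SE 0.24, adjusted p = 8.2e-06). It decreased by 1.58 on the log2 scale in DGCR8 KO (SE 0.42, adjusted p = 0.0067).

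Sgce (chr6:4674350-4747207), which encodes epsilon-sarcoglycan and shares its start region with Peg10, was counted far less. The WT libraries held 3, 10 and 4 reads of it, the DGCR8 KO libraries 0, 1 and 1, and the DDX6 KO libraries 25 and 12 (clone 1) and 37 and 32 (clone 2). In CPM, all DDX6 KO libraries were above all WT libraries, by a narrow gap, and all DGCR8 KO libraries below. Sgce passed the filter of 3 CPM in at least 3 libraries only through DDX6 KO, the group where it was high. Its tests against WT are therefore not independent of the filter. The increase in DDX6 KO was 4.94-fold (log2 2.3, SE 0.55, adjusted p = 0.0037) and 3.26-fold relative to chromosome 6 (log2 1.71, SE 0.56, adjusted p = 0.026). The call as scaled was lost without WT replicate 3 (log2 1.70, adjusted p = 0.060). The centred call was lost without either of 2 WT libraries (log2 1.68, adjusted p = 0.060 without WT replicate 1, and log2 1.11, adjusted p = 0.23 without WT replicate 3) and without the first library of clone 2 (log2 1.49, adjusted p = 0.051). Against WT, Sgce missed the threshold in DGCR8 KO (adjusted p = 0.075), at 2 reads in all against 17, a ratio of 0.129 with an exact 95% counting interval of 0.0145 to 0.543. In an alternative fit with the replicate number as a block over all libraries, those of DDX6 KO included, it passed (adjusted p = 0.026).

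Other genes of the Peg10 cluster behaved differently. Ppp1r9a, which encodes the actin-binding protein neurabin, was at 40.3, 24.5 and 34.3 CPM in WT and at 58.6, 50.8, 59.8 and 50.1 CPM in DDX6 KO libraries. Its increase in DDX6 KO was 0.76 on the log2 scale as scaled (SE 0.20, adjusted p = 0.0057, under the fold limit) and 0.16 relative to the chromosome (95% interval -0.26 to 0.58). In DGCR8 KO it was at 24.2, 9.84 and 15.9 CPM and decreased by 1.01 (SE 0.26, adjusted p = 0.0055), just past the fold limit. With the replicate block the change was -0.99, inside that limit, as it was without WT replicate 1 (-0.91), WT replicate 3 (-0.95) or DGCR8 KO replicate 2 (-0.66). Casd1, a sialic acid acetyltransferase of the Golgi, was at 12.5, 11.2 and 10.3 CPM in WT, 19, 19.7 and 17.1 CPM in DGCR8 KO and 16.5, 13.9, 24.3 and 16.5 CPM in DDX6 KO libraries. It was higher in both knockouts, by 0.75 (adjusted p = 0.019) and 0.65 (adjusted p = 0.033) on the log2 scale, under the fold limit, and its difference in DDX6 KO relative to the chromosome was 0.05 (95% interval -0.43 to 0.53).

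Mest (chr6:30733506-30748465), a paternally expressed gene of the hydrolase fold family active in mesoderm and growth, was at 70.6, 73.3 and 57.1 CPM in WT and at 59.4, 48.5 and 33.4 CPM in DGCR8 KO libraries. DDX6 KO libraries held 360 and 277 CPM (clone 1) and 477 and 404 CPM (clone 2), all above WT, with clone 2 above clone 1. The increase was 5.67-fold (log2 2.5, SE 0.18, adjusted p = 2.7e-08) and 3.74-fold relative to chromosome 6 (log2 1.90, SE 0.19, adjusted p = 1.3e-06). In DGCR8 KO the difference was -0.49 (adjusted p = 0.11). Copg2, a coat protein gene whose exons overlap those of Mest by 912 bases on the opposite strand and which was counted by strand, was at 61.9, 50.4 and 47.0 CPM in WT and 65.2, 88.0, 76.3 and 75.8 CPM in DDX6 KO libraries. Its difference was 0.55 as scaled (adjusted p = 0.0046) and -0.05 relative to the chromosome (95% interval -0.35 to 0.25). Relative to the chromosome Mest passed the test and Copg2 did not, and the difference between the pair was not tested.

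The third cluster of the chromosome has Nap1l5, a retrogene in an intron of Herc3. Nap1l5 was under the filter, with 1, 5 and 3 reads in WT, 1, 0 and 0 in DGCR8 KO and 4, 5, 3 and 6 in DDX6 KO libraries. Pooled over libraries, DGCR8 KO held 1 read against 9 in WT, a ratio of 0.122 with an exact 95% counting interval of 0.00278 to 0.879, which leaves out the spread between libraries. No test across libraries was made for it. Herc3, a ubiquitin ligase gene, was at 10.6, 10.6 and 6.69 CPM in WT and 22.3, 15.7, 19 and 11.8 CPM in DDX6 KO libraries. It was higher by 0.92 (SE 0.30, adjusted p = 0.025), under the fold limit, and by 0.32 relative to the chromosome (95% interval -0.29 to 0.94). The genes within 1 Mb of these clusters stood at medians of 0.86 (6 genes, Peg10), 0.57 (11 genes, Mest) and 0.43 (2 genes, Nap1l5) in DDX6 KO against WT.

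**Figure D3:**
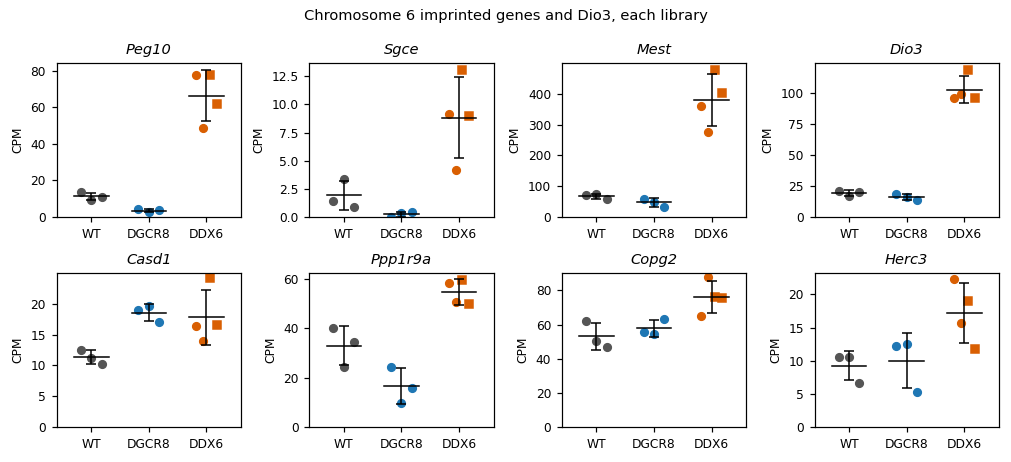
CPM of the 7 tested chromosome 6 members and of Dio3 in every library. Bars show the mean and SD, DDX6 KO circles are clone 1 and squares clone 2. In all 8 panels every DDX6 KO library lies above every WT library, with wide gaps for Peg10, Mest and Dio3 and narrow ones for the other genes. DDX6 KO and WT libraries did not overlap, in either direction, for 43.2% of tested members and 39.9% of all genes tested. The values are as scaled, so the chromosome 6 panels include the shift of that chromosome.

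With the adjusted p-value alone, 7 members away from chromosome 6 were higher in DDX6 KO cells. Dio3 was the only one of them past the fold limit. It lies at the distal end of the Dlk1-Dio3 cluster (chr12:110279068-110281097), encodes the deiodinase that inactivates thyroid hormone, and was at 21.1, 16.7 and 20.3 CPM in WT and 18.7, 16.3 and 13.4 CPM in DGCR8 KO libraries. DDX6 KO libraries held 96.3, 99.8, 119 and 96.6 CPM, all far above both other groups, and the fitted increase was 5.29-fold (log2 2.40, SE 0.16, adjusted p = 1.3e-08). Dlk1, the paternally expressed Notch-like ligand at the other end of the cluster (chr12:109452849-109463336), did not share it. Its levels were 13.9, 11.2 and 14.3 CPM in WT, 21.2, 18.4, 13 and 15.7 CPM in DDX6 KO (log2 0.34, adjusted p = 0.25) and 3.98, 6.45 and 7.33 CPM in DGCR8 KO libraries, a decrease by 1.21 (SE 0.32, adjusted p = 0.0056). Without DGCR8 KO replicate 1 that decrease was -0.92 and within the fold limit. The maternally expressed noncoding RNAs between them were lower in DDX6 KO under the fold limit, with differences of -0.55 for Meg3 (adjusted p = 0.035) and, for Rian, which hosts small RNAs, -0.69 (adjusted p = 0.0081). Rtl1, antisense to miRNA hairpins, had no read in any library.

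In the Peg3 cluster both tested members fell in DGCR8 KO cells. Peg3, a paternally expressed zinc finger gene (chr7:6703892-6730421), was at 162, 128 and 149 CPM in WT and 63.1, 64.5 and 66.0 CPM in DGCR8 KO libraries, a decrease by 1.17 (SE 0.21, adjusted p = 0.00023). In DDX6 KO it was at 95.6 and 93.2 CPM (clone 1) and 180 and 152 CPM (clone 2), below WT in one clone and overlapping it in the other, with a fitted difference of -0.21 (adjusted p = 0.38). Usp29 (chr7:6730583-6967219), the deubiquitinase gene read from the opposite strand of the same start region, had 23, 40 and 27 reads in WT libraries, 4, 8 and 3 in DGCR8 KO and 10, 14, 18 and 6 in DDX6 KO. It decreased by 2.35 in DGCR8 KO (SE 0.59, adjusted p = 0.0043) and by 1.29 in DDX6 KO (SE 0.41, adjusted p = 0.021). The DDX6 KO call was lost without WT replicate 2 (-1.01, adjusted p = 0.082), without the second clone 2 library (-0.85, adjusted p = 0.11) and in each clone alone. The 17 genes within 1 Mb had a median of -0.16 in DGCR8 KO, and 6 of them changed.

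Peg12, the Frat family gene of the Snrpn cluster (chr7:62461871-62464510), was at 14.4, 12.3 and 15.8 CPM in WT and 2.76, 5.09 and 6.11 CPM in DGCR8 KO libraries, a decrease by 1.70 (SE 0.39, adjusted p = 0.0022). In DDX6 KO it was at 30.0 and 30.6 CPM (clone 1) and 16.5 and 22.1 CPM (clone 2), higher by 0.74 (adjusted p = 0.023) and under the fold limit, and between the knockouts it differed by -2.44 (SE 0.37, adjusted p = 3.3e-05). The other tested members of the cluster, Snrpn, Ube3a, Ndn and Mkrn3, did not change in either knockout. Snrpn, a splicing protein gene, had differences of -0.61 in DGCR8 KO (adjusted p = 0.054) and 0.03 in DDX6 KO, and Ube3a, the ubiquitin ligase of Angelman syndrome, was 0.43 higher in DDX6 KO (adjusted p = 0.0046) under the fold limit.

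The mean levels of both genes of the H19-Igf2 cluster were lowest in DGCR8 KO and highest in DDX6 KO. Igf2 (chr7:142650766-142666816), the fetal growth factor, was at 13.4, 14.7 and 11.8 CPM in WT, 8.27, 6.45 and 6.11 CPM in DGCR8 KO and 18.7, 17.0, 27.4 and 24.9 CPM in DDX6 KO libraries, with no overlap between the groups. Its differences from WT were -0.89 (adjusted p = 0.025) and 0.73 (adjusted p = 0.014), each under the fold limit, and between the knockouts -1.62 (SE 0.27, adjusted p = 0.00011). H19, the maternally expressed noncoding RNA beside it, had means of 30.3 ± 3.83 CPM in WT, 20.4 ± 6.30 CPM in DGCR8 KO (SD, n = 3 each) and 39.5 ± 12.5 CPM in DDX6 KO (SD, n = 4), and differed between the knockouts by -0.96 (adjusted p = 0.0050), under the fold limit. The summed fibroblast markers were also lowest in DGCR8 KO and highest in DDX6 KO libraries, led by Col1a1 at 1.88 ± 0.525 CPM in WT, 0.566 ± 0.141 CPM in DGCR8 KO (SD, n = 3 each) and 4.07 ± 1.94 CPM in DDX6 KO (SD, n = 4), and their part in the levels of Igf2, H19 and Dlk1 was not tested. None of the 5 tested members of the Kcnq1 cluster changed in either knockout, with differences from -0.85 (Phlda2, adjusted p = 0.21) to 0.12 in DGCR8 KO and from -0.37 (Kcnq1ot1, adjusted p = 0.19) to 0.01 in DDX6 KO. Igf2r, the scavenger receptor of IGF2, was at 92.3 ± 13, 84.8 ± 14.5 (SD, n = 3 each) and 93.8 ± 7.62 CPM (SD, n = 4), with differences of -0.13 (95% interval -0.43 to 0.17) and 0.02.

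Among members of small clusters, Slc38a4, an amino acid transporter gene active in liver and placenta (chr15:96994823-97055956), had the smallest adjusted p-value of the members in DGCR8 KO. Its levels were 211, 192 and 191 CPM in WT, 71, 58.7 and 46.8 CPM in DGCR8 KO and 152, 162, 155 and 114 CPM in DDX6 KO libraries. It decreased by 1.75 in DGCR8 KO (SE 0.16, adjusted p = 1.8e-07) and differed by -0.46 in DDX6 KO (adjusted p = 0.011), under the fold limit. Sfmbt2, a Polycomb gene on chromosome 2 (chr2:10370510-10595253), was at 12.5, 16 and 15.8 CPM in WT and 30.0, 39.0 and 32.6 CPM in DGCR8 KO libraries, an increase of 2.23-fold (log2 1.15, SE 0.20, adjusted p = 0.00015). Impact, a regulator of the translation kinase GCN2 (chr18:12972252-12992948), was at 211, 248 and 171 CPM in WT and 423, 539 and 335 CPM in DGCR8 KO libraries, an increase of 2.07-fold (log2 1.05, SE 0.16, adjusted p = 5.1e-05). Its value was 0.89 without WT replicate 3 and 0.88 without DGCR8 KO replicate 2, each inside the fold limit. In DDX6 KO cells Sfmbt2 and Impact differed from WT by 0.41 (adjusted p = 0.11) and 0.08 (adjusted p = 0.71).

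Mcts2, a retrogene in an intron of H13 (chr2:152687035-152687951), was at 41.3, 46.0 and 63.3 CPM in WT, 31.8, 25.5 and 35.0 CPM in DGCR8 KO and 20.5, 20.9, 20.1 and 23.8 CPM in DDX6 KO libraries. It decreased by 1.25 in DDX6 KO (SE 0.18, adjusted p = 4.1e-05) and was 0.75 lower in DGCR8 KO, under the fold limit. Reads were kept only where they mapped uniquely, so reads of Mcts2 that also match its source gene Mcts1 are not in the counts. H13, a signal peptide peptidase gene, differed by 0.90 in DGCR8 KO (adjusted p = 0.0070), the opposite direction to Mcts2. Gab1, a signalling adaptor on chromosome 8 (chr8:80764438-80880519), was at 269, 320 and 252 CPM in WT, 208, 183 and 173 CPM in DGCR8 KO and 403, 368, 414 and 386 CPM in DDX6 KO libraries, and differed between the knockouts by -1.06 (SE 0.11, adjusted p = 3.4e-07). Chromosome 8 as a whole was lower in DGCR8 KO, with a median of -0.45 ± 0.065 over its 643 other genes (SD, n = 3). Relative to that shift Gab1 was at -0.11 in DGCR8 KO (95% interval -0.35 to 0.13) and at -0.63 between the knockouts, inside the fold limit. Gnas, the stimulatory G protein gene (chr2:174284320-174346744), was at 94.6, 109 and 67.3 CPM in WT, 45.0, 66.2 and 35.0 CPM in DGCR8 KO and 117, 102, 86.2 and 130 CPM in DDX6 KO libraries, a difference between the knockouts of -1.18 (SE 0.21, adjusted p = 0.00016). Without DGCR8 KO replicate 3 the difference was -0.99, inside the fold limit. Plagl1, a zinc finger gene of growth arrest, came close to the fold limit in DDX6 KO, at -0.94 (adjusted p = 0.00031). The tested members of the Inpp5f, Grb10, Zrsr1, Nnat, Zdbf2 and Peg13 clusters did not change in either knockout.

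**Figure D4:**
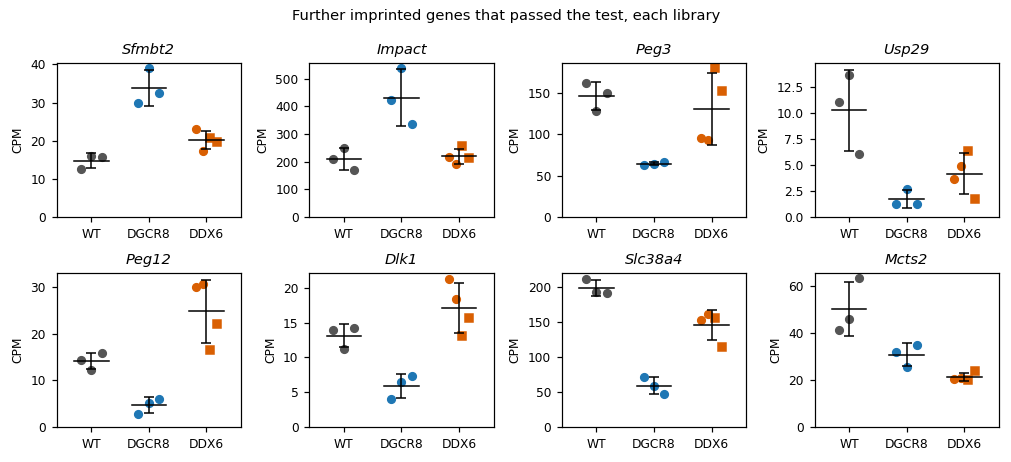
CPM of 8 further members that changed against WT, in every library. Bars show the mean and SD, DDX6 KO circles are clone 1 and squares clone 2. DGCR8 KO libraries lie above WT for Sfmbt2 and Impact and below WT for the other 6 genes, and DDX6 KO libraries lie below WT for Slc38a4 and Mcts2. DGCR8 KO and WT libraries did not overlap, in either direction, for 47.7% of tested members and 44.8% of all genes tested.

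The 2 DDX6 KO clones differed in none of the 44 tested members, and in 0.0428% of all genes tested. At an unadjusted p under 0.05 the number was 10 of 44 members by limma-voom, where it was 284 of all 11683 genes tested, and edgeR and DESeq2 each called 1, Phlda2, which was at 34.5 ± 14.1 CPM in clone 1 and 8.73 ± 1.90 CPM in clone 2 (SD, n = 2 each). Against WT, Peg10, Sgce, Mest and Dio3 rose and Mcts2 fell in each clone. In clone 1 the test was also passed by Herc3 (log2 1.11), Peg12 (1.08) and Plagl1 (-1.15), none of which was called between the clones. Peg3 differed between the clones by 0.80 (SE 0.15, adjusted p = 0.10) and both clone 2 libraries lay above both clone 1 libraries. Relative to chromosome 6, Peg10 was 3.53-fold higher in clone 1 and 4.26-fold in clone 2, and Mest 3.05-fold and 4.56-fold. Sgce was 2.36-fold higher in clone 1 (adjusted p = 0.14) and 4.34-fold in clone 2 (adjusted p = 0.0092).

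Of the 11 members under the filter, Snurf, Rtl1 and Rasgrf1 had no read, and Kcnq1, Slc22a18, Airn, Magel2 and Zim1 had at most 4 reads in any library. Ascl2, a trophoblast transcription factor, had 6, 5 and 23 reads in WT, 6, 7 and 0 in DGCR8 KO and 1, 7, 10 and 6 in DDX6 KO libraries, and Asb4 had 1 to 11 reads in every library. These genes were not tested for differences.

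Of 20 tested genes that hold, set or oxidise imprinted methylation, 3 changed in DGCR8 KO (15%) and 2 in DDX6 KO, shares near the 14.7% and 11.2% of all genes tested. An adjusted p-value under 0.05 was reached by 10 (50%) and 11 (55%) of them, against 36.3% and 34.5% of all genes tested. Between the knockouts limma-voom called none, with 11 at an unadjusted p under 0.05 and 9 at an adjusted one. Dppa3, the maternal factor that protects imprints after fertilization, fell in both lines, from 14.2 ± 1.85 CPM in WT to 3.30 ± 2.72 CPM in DGCR8 KO (SD, n = 3 each, log2 -2.29, adjusted p = 0.00063) and 3.59 ± 1.84 CPM in DDX6 KO (SD, n = 4, log2 -2.11, adjusted p = 0.00036). It lies on chromosome 6, relative to which the DDX6 KO difference was -2.71. Uhrf1, which brings DNMT1 to hemimethylated DNA, fell from 278 ± 38.5 CPM to 138 ± 22.7 CPM in DGCR8 KO (SD, n = 3 each, log2 -1.03, adjusted p = 1.7e-05). Arid4a, a chromatin protein of the Snrpn imprint, rose from 102 ± 6.59 CPM to 239 ± 17.5 CPM there (log2 1.24, adjusted p = 1.4e-07). Dnmt3b, a de novo methyltransferase, fell from 194 ± 51.1 CPM in WT (SD, n = 3) to 75.5 ± 9.91 CPM in DDX6 KO (SD, n = 4, log2 -1.35, adjusted p = 1.3e-05). Trim28 was 0.72 lower in DDX6 KO (adjusted p = 0.00024), under the fold limit, and Zfp57 was 0.59 lower in DGCR8 KO (adjusted p = 0.031) with a difference of -0.16 in DDX6 KO (adjusted p = 0.52). Dnmt1 differed by 0.23 in DGCR8 KO (adjusted p = 0.069) and by -0.26 in DDX6 KO (adjusted p = 0.040). DNA methylation was not measured in these libraries, and the part of these regulators in the members' levels was not tested.

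**Figure D5:**
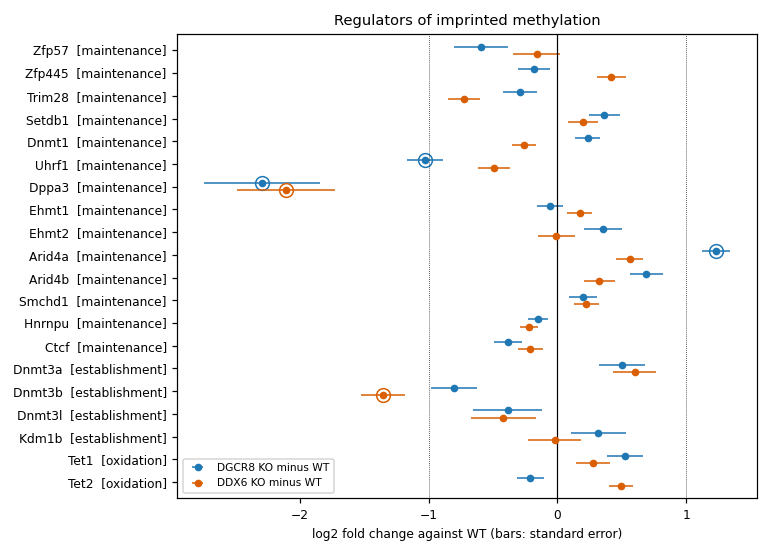
Log2 fold change against WT of 20 tested regulators of imprinted methylation, grouped as maintenance, establishment or oxidation. Points are DGCR8 KO (blue) and DDX6 KO (orange), bars the standard error, and rings the changed genes, which are Uhrf1, Dppa3 and Arid4a in DGCR8 KO and Dppa3 and Dnmt3b in DDX6 KO.

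Of 38 further genes that lie in or next to these clusters, 16 were tested, and 3 changed in each knockout against WT (18.8%), 2 higher and 1 lower, where 14.7% (DGCR8 KO) and 11.2% (DDX6 KO) of all genes tested changed. On the centred scale 2 changed in DDX6 KO (12.5%), against 10.5% of all genes tested. Mirg, the miRNA host RNA of the Dlk1-Dio3 cluster, rose from 9.80 ± 4.75 to 22.3 ± 4.62 CPM in DGCR8 KO (SD, n = 3 each, log2 1.13, adjusted p = 0.0066), while Meg3 and Rian of the same strand did not change. Zfp264, in the Peg3 cluster, decreased by 1.19 in DGCR8 KO (adjusted p = 0.043). Tspan32, at the Kcnq1 cluster, was higher in both knockouts (log2 2.32 and 1.80, adjusted p = 0.0012 and 0.0089), with a WT spread of 3.94 ± 4.49 CPM (SD, n = 3) that exceeds its mean. In DDX6 KO, Pon2, next to Peg10, rose by 1.13 (adjusted p = 0.024) as scaled and differed by 0.53 relative to chromosome 6 (adjusted p = 0.30).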

How the data were processed

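QuantSeq 3′ FWD libraries of 10 mouse ESC samples were analysed. The authors trimmed reads with cutadapt 1.14, aligned them to mm10 with STAR 2.5.3a keeping unique alignments, and deposited raw counts per gene made with featureCounts 1.5.3 on the sense strand of Gencode M14 with ERCC spike-ins. ERCC counts, 1.10 to 2.36% of a library, were left out. Counts were scaled by TMM (edgeR 4.0.16) and fitted with limma-voom (limma 3.58.1, R 4.3.3) over all 10 libraries, with Benjamini-Hochberg adjustment over 11683 genes. Clones were compared in a second model with 4 groups, and a further fit used values centred on each chromosome's median. edgeR's quasi-likelihood test and DESeq2 1.42.0 were alternatives, and the pipeline was tested on simulated data. Every member changed in a comparison and every tested chromosome 6 member is given by library, and the others by ranges or means. The members and gene lists were chosen with earlier results of these data known. Sequences come from RefSeq GRCm38.p6, and 3′ UTRs were taken from the M21 annotation of the same build. Same-numbered WT and DGCR8 KO libraries deviated together (r = 0.118 to 0.244 over genes), while those of DDX6 KO libraries did not all do so. The main fit took no account of replicate numbers, so its p-values leave out that pairing. That fit also counted the 4 DDX6 KO libraries as 4 replicates, without regard to clone. A fit with the clone as a random block was an alternative. An alternative fit had the number as a block over all 10 libraries, those of DDX6 KO included. Depth is 2131156 to 4745083 counts, and the floors and the intervals of count ratios cover counting error only, while the other intervals come from the fit and include the spread between libraries. The values of 1 further gene beside the clusters are not reported here.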

Additional observations from a re-analysis of the deposited data

Results flagged for a closer look

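Dio3 in DDX6 KO cells had 1 library apart from the others of its group. The first library of clone 2 stood at 119 CPM, against 96.3, 99.8 and 96.6 CPM, and its gap to the nearest library was 0.848 of the group's range, above Dixon's 95% critical value of 0.829 for 4 libraries. It was the 1 case among 44 members tested in this way, and chance alone gives about 1 in 20. All 4 libraries remained far above the WT libraries of 16.7 to 21.1 CPM.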

How the results depend on the processing

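Every member that changed kept its direction under all alternatives run. The differences of Casd1, Ppp1r9a, Copg2 and Herc3 relative to chromosome 6, none of which passed the test, changed sign under some of them. With the adjusted p-value alone and no fold limit, 16 members passed in DGCR8 KO against WT, 20 in DDX6 KO against WT and 24 between the knockouts, in place of 9, 6 and 11. The shares of members were 36.4%, 45.5% and 54.5%, and those of all genes tested 36.3%, 34.5% and 44.0%. Under every other alternative these counts stayed within 1.5 times, and leaving out 1 library at a time gave 9 to 10, 6 to 8 and 11 to 14. The clone comparison gave 1 member, Phlda2, by edgeR, DESeq2 and the replicate block, and 0 to 1 without single libraries. The chromosome 6 median of DDX6 KO cells was 0.72 with total counts as scale and 0.31 with no filter, and the chromosome 8 median of DGCR8 KO cells was -0.36 with no filter. Total counts moved the median of all genes in DDX6 KO to 0.15. With the replicate block 9, 7 and 10 members changed. In the pair of WT and DGCR8 KO it took Ppp1r9a out and brought Sgce in, and it changed no other call there. Same-numbered DDX6 KO libraries of the clones correlated at 0.186, but with WT and DGCR8 KO libraries of their number at -0.0362 to 0.152, not all above 0.1. In the comparisons with DDX6 KO the block ended the calls of Gnas (-0.98) and Gab1 (adjusted p = 9.5e-09, inside the fold limit) between the knockouts and of Sgce relative to chromosome 6 (1.31, adjusted p = 0.12), and brought in Plagl1 and Impact. The causes were not tested. The 11 members under the filter were not tested at this depth.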
